A study of Mus musculus with 4 samples.

Results

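The genes described here are 10 markers of endothelium, the cell layer that lines blood vessels: Cdh5, Kdr, Pecam1, Plvap, Esam, Tek, Tie1, Flt1, Emcn and Cldn5. They were chosen by name, and every probe set annotated to one of these symbols alone was taken, which gave 14 probe sets among 45037 non-control probe sets. Cdh5 had 2 probe sets, Flt1 had 4 and each other gene had 1. All 14 passed the filter on low signal and lay above its level of 73.2 on each of the 4 arrays, so no member was lost to the filter. The 10 genes were set beside 12703 genes with a probe set that passed.

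The RNA came from epidermal basal cells of mouse skin, purified by flow cytometry at embryonic day 16, from WT embryos and from conditional Ezh2 knockout embryos (Ezh2cKO); Ezh2 is the enzyme of the Polycomb system that methylates histone H3. Both groups were on a mixed strain background of C57 and CD1, and each had 2 samples, numbered 1 and 2, with 1 Affymetrix array per sample. The labels give neither the Cre driver, the markers used for the sort, nor whether a sample was 1 animal or a pool, and they do not state that the samples came from separate animals, so p-values measure only how far these samples spread, and that spread may be technical. Values are MAS5 signals, a brightness per probe set on a linear scale, which cannot be set against each other between probe sets. Differences are on the log2(signal + 16) scale unless a ratio of signals is named, and each genotype has n = 2.

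Endothelial cells hold together through an adherens junction built on VE-cadherin, the product of Cdh5, and through tight junctions with claudin-5. Their growth and stability depend on 2 receptor systems, VEGF with its receptors and the angiopoietins with Tie2. In developing skin the vessels run in the dermis, and the epidermis itself holds none, so these transcripts are not products that define basal keratinocytes.

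The targeted gene, Ezh2, had signals of 3336 and 3603 in WT replicates 1 and 2, and 661 and 1308 in Ezh2cKO replicates 1 and 2. The sample sets also differed beyond genotype. Over non-control probe sets the median signal was 91.6 (WT) and 87.4 (Ezh2cKO) in number 1, and 137 and 148 in number 2. Xist, the RNA that coats the inactive X chromosome, had 86.9 in Ezh2cKO replicate 1 and 8669 to 11333 on the other arrays, while the 3 Y-linked genes tested, Eif2s3y, Kdm5d and Uty, were highest there, Kdm5d with 494 against 118 to 287 elsewhere. Ezh2cKO replicate 1 therefore stood apart by its embryo sex genes, and each result below is given within each number. Keratinocyte identity was plain on all arrays, with Krt14, a basal keratin, at 14501 to 16592. In 11 genes of organs outside skin, such as the rod transducin Gnat1, the median signal was 32.5 to 65.1 per array and the highest 82.9 to 177. The 14 endothelial probe sets spanned 90.2 to 1047 in Ezh2cKO replicate 1, 135 to 1881 in WT replicate 1, 209 to 2151 in WT replicate 2 and 197 to 2180 in Ezh2cKO replicate 2.

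Endothelial transcripts had lower signal in Ezh2cKO replicate 1 than on each of the other 3 arrays. This held for 14 of 14 probe sets and 10 of 10 genes, where Ezh2cKO replicate 1 was the lowest array for 34.3% of all tested probe sets and 27.3% of all tested genes. Represented by its brightest probe set, a gene's signal in Ezh2cKO replicate 1 was 0.407 to 0.746 times that in WT replicate 1, with a median of 0.542. Within number 2 the same ratio ran from 0.979 to 1.25, with a median of 1.07. The 10 genes thus differed between the genotypes in the pair of arrays numbered 1 and lay close together in the pair numbered 2. Under scaling of each array to a common median, Ezh2cKO replicate 1 was the lowest array for 9 of 10 genes, Cldn5 being the exception. With that scaling it was the lowest for 7.47% of all tested genes. Fewer endothelial cells in a sorted sample and less endothelial RNA per cell cannot be told apart in such bulk values.

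**Figure D1:**
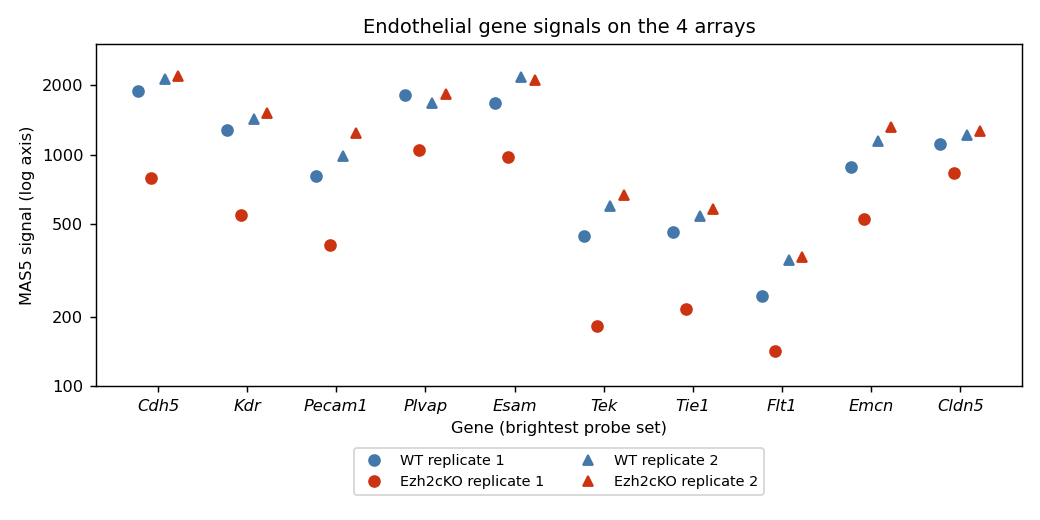
Signal of each of the 10 endothelial genes on a log axis, by its brightest probe set, with 1 point per array; circles are arrays numbered 1, triangles arrays numbered 2, blue WT and red Ezh2cKO. The red circle, Ezh2cKO replicate 1, is the lowest point for 10 of 10 genes, and no gene has both Ezh2cKO values below both WT values.

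Of the receptors, Kdr encodes VEGF receptor 2, the main signalling receptor for VEGF on endothelium. Its signal was 1271 in WT replicate 1, 1418 in WT replicate 2, 547 in Ezh2cKO replicate 1 and 1507 in Ezh2cKO replicate 2. The other 3 arrays lay within 1.19-fold of each other, and Ezh2cKO replicate 1 was at 0.430 times the lowest of them. Of all tested genes, 0.614% had a lower log2 difference than Kdr within number 1 (-1.19), while its difference within number 2 was 0.09. Over both numbers the log2 difference of Kdr, Ezh2cKO minus WT, was -0.55 (SE 0.47, 95% confidence interval -1.74 to 0.63).

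Flt1 encodes VEGF receptor 1, which binds VEGF tightly, exists also as a secreted form and acts largely as a decoy. By its brightest probe set the signal was 246 and 352 on WT replicates 1 and 2, and 142 and 361 on Ezh2cKO replicates 1 and 2. Its 4 probe sets had Ezh2cKO to WT signal ratios of 0.577, 0.622, 0.775 and 0.666 within number 1. Within number 2 the ratios were 1.03, 0.944, 1.18 and 1.15 in the same order. The 4 thus shared the low value of Ezh2cKO replicate 1 and parted in direction within number 2. They lay near the filter's level, with 90.2 to 142 in Ezh2cKO replicate 1, where MAS5 values are noisy.

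Tek encodes Tie2, the receptor of the angiopoietins, which keep vessels stable. Its signal was 446 in WT replicate 1, 599 in WT replicate 2, 181 in Ezh2cKO replicate 1 and 669 in Ezh2cKO replicate 2. The ratio within number 1 was 0.407, the lowest among the 10 genes, and within number 2 it was 1.12. Tie1 encodes the related orphan receptor that modulates Tie2. It had 463 and 544 in WT replicates 1 and 2, and 215 and 585 in Ezh2cKO replicates 1 and 2. Its 4 values were the closest of any member to the median profile of the 10 genes, with a root mean square difference of 0.05 on the log2 scale after centring.

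The promoters of these receptors are shown as the bases before the annotated start. They are those of Kdr and Flt1, the VEGF receptors, and of Tek and Tie1, the angiopoietin receptor pair. A link between these letters and the signals was not tested. The sequences are those of RefSeq, build GRCm38.p6, 250 bases long, and read 5′ to 3′ on the gene's strand. Capitals mark GGAA, the core letters bound by Ets factors such as Erg and Fli1, or TTCC, the same core on the opposite strand.
Kdr (GRCm38.p6 chr5:75978456-75978705, minus strand): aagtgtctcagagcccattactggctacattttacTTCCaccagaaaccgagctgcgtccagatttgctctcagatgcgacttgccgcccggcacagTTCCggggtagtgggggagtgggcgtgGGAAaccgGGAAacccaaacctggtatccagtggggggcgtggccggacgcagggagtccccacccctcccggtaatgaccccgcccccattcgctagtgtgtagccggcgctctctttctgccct
Flt1 (GRCm38.p6 chr5:147726012-147726261, minus strand): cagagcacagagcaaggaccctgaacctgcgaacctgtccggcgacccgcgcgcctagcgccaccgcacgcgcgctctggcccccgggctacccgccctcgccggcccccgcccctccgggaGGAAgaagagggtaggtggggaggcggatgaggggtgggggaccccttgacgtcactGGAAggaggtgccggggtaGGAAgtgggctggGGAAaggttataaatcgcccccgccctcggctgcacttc
Tek (GRCm38.p6 chr4:94739039-94739288, plus strand): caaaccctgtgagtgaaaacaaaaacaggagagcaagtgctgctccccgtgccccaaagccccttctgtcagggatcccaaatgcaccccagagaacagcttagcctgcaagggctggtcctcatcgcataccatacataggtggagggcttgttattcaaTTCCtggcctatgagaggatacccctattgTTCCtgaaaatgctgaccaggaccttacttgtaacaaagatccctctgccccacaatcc
Tie1 (GRCm38.p6 chr4:118489850-118490099, minus strand): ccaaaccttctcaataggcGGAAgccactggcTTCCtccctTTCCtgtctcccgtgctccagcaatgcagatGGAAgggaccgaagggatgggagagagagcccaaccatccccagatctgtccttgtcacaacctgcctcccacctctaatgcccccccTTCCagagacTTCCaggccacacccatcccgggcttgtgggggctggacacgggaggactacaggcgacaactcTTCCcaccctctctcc
The core occurred 4 times before Kdr, 4 times before Flt1, 2 times before Tek and 7 times before Tie1, counted on both strands. Of the 10 genes, 6 had a RefSeq promoter here, Cldn5 and Emcn being the other two, and 5 of the 6 held the core, which Cldn5 lacked. It is a common word: 93.4% of 32851 promoter windows of this length held it, with a median count of 3. The longer Ets word CAGGAAG, which contains the core, was found in 1 of the 6, Emcn, and in 10.8% of all windows. The GATA word AGATAA was found in 0 of the 6 and in 9.99% of all windows, and the TATA word TATAAA in 1 of the 6, Flt1, and in 12.4%. A match is a description of letters in these windows and not a bound site.

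Among the junction genes, Cdh5 encodes VE-cadherin. By its brighter probe set the signal was 1881 in WT replicate 1, 2116 in WT replicate 2, 791 in Ezh2cKO replicate 1 and 2180 in Ezh2cKO replicate 2. The other 3 arrays lay within 1.16-fold of each other, and Ezh2cKO replicate 1 was at 0.420 times the lowest. Its dimmer probe set had 171, 355, 111 and 577 in the same order. The probe sets agreed that Ezh2cKO replicate 1 was lowest but not on the rest: the ratio within number 2 was 1.03 for the brighter and 1.63 for the dimmer one, and WT replicate 2 was 1.13 and 2.08 times WT replicate 1. For the dimmer probe set the genotype difference was log2 0.06 (SE 0.78), against -0.60 (SE 0.47) for the brighter one.

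Pecam1 encodes PECAM-1, or CD31, an adhesion molecule of endothelium that platelets and leukocytes also carry. It had 809 and 990 in WT replicates 1 and 2, and 409 and 1236 in Ezh2cKO replicates 1 and 2. The ratio was 0.506 within number 1 and 1.25 within number 2, so the Ezh2cKO arrays were the lowest and the highest of the 4. Itga2b and Pf4, markers of platelets, had ratios within number 1 of 0.944 and 1.37. Ptprc, the leukocyte antigen CD45, lay below the filter at 13.0 to 41.2. Ptprc does not stand for its list, since 11 of 14 immune genes passed the filter, such as Laptm5 at 274 to 350. Ezh2cKO replicate 1 was the lowest array for 3 of these 11.

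Esam encodes an immunoglobulin-type adhesion molecule of endothelial tight junctions. Its signal was 1675 and 2151 in WT replicates 1 and 2, and 975 and 2106 in Ezh2cKO replicates 1 and 2. Cldn5, the claudin that seals endothelial tight junctions, had 1116 and 1217.5 in WT replicates 1 and 2, and 833 and 1264 in Ezh2cKO replicates 1 and 2. Cldn5 showed the smallest gap among the 10 genes within number 1, with a ratio of 0.746, and was the single gene less than 1.5-fold lower there on the log2(signal + 16) scale. Of 9 further junction genes tested, most of them shared with epithelia, such as Tjp1, F11r and Ctnnb1, 0 were 1.5-fold lower within number 1. Their median log2 difference there was 0.06, and Ezh2cKO replicate 1 was the lowest array for 3.

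The remaining genes mark the vessel surface. Plvap encodes the protein of the diaphragms that span fenestrae and caveolae of endothelium. Its signal was 1805 and 1672 in WT replicates 1 and 2, and 1047 and 1819 in Ezh2cKO replicates 1 and 2. It was the single gene whose WT value was lower in number 2 than in number 1. Emcn encodes endomucin, a sialomucin of capillary and venous endothelium. It had 887 and 1144 in WT replicates 1 and 2, and 525 and 1319.5 in Ezh2cKO replicates 1 and 2, so that Ezh2cKO replicate 1 was at 0.592 times the next array.

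Between the genotypes over both numbers, no endothelial gene passed. The log2 difference, Ezh2cKO minus WT, was below 0 for 10 of 10 genes, from -0.60 for Cdh5 to -0.18 for Cldn5, with standard errors of 0.26 to 0.60 and a median of -0.37 beside -0.004 over all tested genes. In limma the adjusted p was 0.99998 for each of the 14 probe sets, and the lowest unadjusted p was 0.257. Ezh2, the targeted gene, did not pass either (log2 -1.88, SE 0.34, adjusted limma p 0.99998). A gene that did not pass this fit may therefore still differ. The background was the same: 0% of 27022 probe sets passed the adjusted threshold of 0.05, and 0.407% had an unadjusted limma p under 0.05. The Ezh2cKO values were both under the WT values for 0 of 10 genes, where 8.39% of all genes did, and 8.52% lay above. The sign turned when Ezh2cKO replicate 1 was left out, with 10 of 10 log2 differences above 0, between 0.07 for Plvap and 0.46 for Pecam1. Without Ezh2cKO replicate 2 they ran from -1.43 for Tek to -0.48 for Cldn5, still with 0 genes passing (lowest adjusted limma p 0.127). Scaling to a common median put 5 of the 10 genes lower in both Ezh2cKO arrays. The share of all genes with that scaling is not given here, so this count has no background to be read against.

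Within number 1, 9 of 10 genes were at least 1.5-fold lower in Ezh2cKO and 4, Cdh5, Kdr, Tek and Tie1, at least 2-fold lower. Of all genes, 4.20% and 0.921% were that much lower. The median log2 difference was -0.87 for the 10 genes and 0.02 for all tested genes. Within number 2, 0 of 10 genes were 1.5-fold lower, where 1.14% of all genes were, and 9 of 10 lay above 0, with a median of 0.09 beside -0.01 for all genes and 46.8% of them above 0. The sign within number 2 depends on the scaling, since with a common median 4 of 10 lay above 0. Relative to the median of all genes, the 10 genes were at -0.88 within number 1 and 0.11 within number 2, and at -0.89 and 0.11 with that scaling. Each number holds 1 array per genotype, so neither difference has a replicate check, and the difference between the numbers was not tested.

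**Figure D2:**
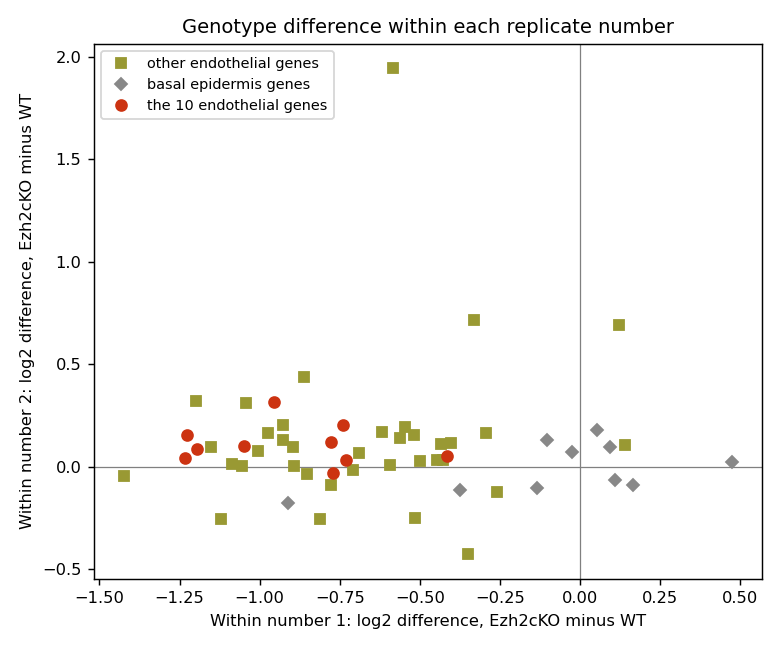
The log2 difference Ezh2cKO minus WT within number 1 (x axis) against that within number 2 (y axis), 1 point per gene; red circles are the 10 endothelial genes, squares 37 other endothelial genes and grey diamonds 10 genes of basal epidermis. The 10 genes lie between -1.23 and -0.42 on the x axis and between -0.03 and 0.32 on the y axis, and Itga6 is the diamond farthest to the left.

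Between the replicate numbers, endothelial signals were higher on the arrays numbered 2 with the deposited scaling. Both arrays numbered 2 exceeded both numbered 1 for 9 of 10 genes, Plvap being the exception, where 31.4% of all genes did. With a common median this held for 0 of 10, and the share of all genes with that scaling is not given here. In limma 5 of 14 probe sets were higher in number 2 at an adjusted p under 0.05, where 21.4% of all tested probe sets were called higher and 9.42% lower. They were 3 probe sets of Flt1, the dimmer one of Cdh5 and that of Emcn. By brightest probe sets 2 of 10 genes passed, Flt1 (log2 0.87, SE 0.25, adjusted limma p 0.0407) and Emcn (log2 0.83, SE 0.24, adjusted limma p 0.0407), where 11.6% of all genes did in that direction. Tek had the largest difference among the 10 (log2 1.10, SE 0.37, adjusted limma p 0.0618), with a wide interval from 0.23 to 1.98.

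The gap between the numbers was set side by side for the genotypes, from 1 array each and so without a test. Between the WT arrays the signal in number 2 was 0.926 to 1.43 times that in number 1, with a median of 1.20. Between the Ezh2cKO arrays it was 1.52 to 3.69 times, with a median of 2.63. Tek had the highest ratio between the Ezh2cKO arrays, at 3.69, and 1.34 between the WT arrays, where Flt1 had the highest at 1.43; Cldn5 had the lowest between the Ezh2cKO arrays. Without Ezh2cKO replicate 1 the median log2 difference between the numbers was 0.31, against 0.80 with it.

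How much number 2 exceeded number 1 also rests on the scaling. With a common median the split of called probe sets turned from 5780 higher and 2546 lower to 2007 higher and 14242 lower, and 1 of the 14 endothelial probe sets was called higher. With quantile normalization the split was 2819 and 2618, with 2 of the 14 called higher. A common median moved the median log2 difference of all genes between the numbers from -0.04 to -0.69. Relative to that median, the 10 genes stood at 0.84 with the deposited scaling and at 0.84 with a common median.

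**Figure D3:**
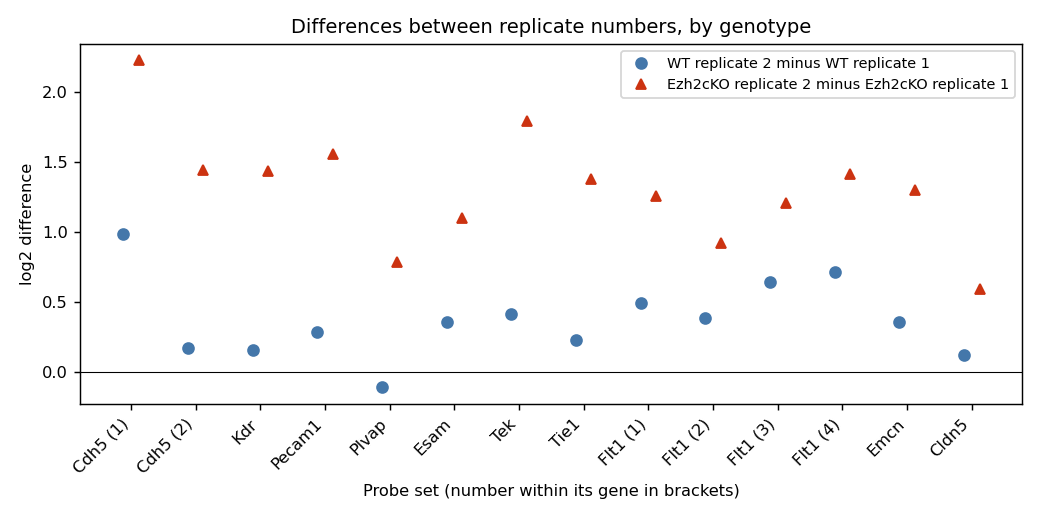
The log2 difference between arrays numbered 2 and 1 for each of the 14 endothelial probe sets, with blue circles for the WT pair and red triangles for the Ezh2cKO pair; numbers in brackets count the probe sets of Cdh5 and Flt1. The triangles lie above the circles for 14 of 14 probe sets, from 0.59 for Cldn5 to 2.23 for the dimmer Cdh5 probe set.

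Further endothelial genes, from a list of 38 of which 37 were tested, were counted next. Ezh2cKO replicate 1 was the lowest array for 31 of 37, or 24 with a common median, where it was for 7.47% of all genes. Of the 37, 22 were at least 1.5-fold lower within number 1, with a median of -0.69. Their median within number 2 was 0.09 (-0.02 with a common median), and 0 of 37 passed limma between the genotypes. Fli1, an Ets factor of endothelium and blood, had 758 and 723 in WT replicates 1 and 2, and 273 and 699.9 in Ezh2cKO replicates 1 and 2. Icam2, an adhesion molecule, had 935 and 849.6 in WT, and 442 and 853 in Ezh2cKO. Nos3, the endothelial nitric oxide synthase, had 418 and 475 in WT, and 225 and 463 in Ezh2cKO. Each of these repeats the picture of 3 similar arrays and a low Ezh2cKO replicate 1.

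Other genes of that list departed from it. Sox18, a vessel transcription factor, was high in WT replicate 1 at 1086 and lay at 462 to 503 on the other 3 arrays. Lmo2, a factor of blood and vessel development, had 566 and 580 in WT and 441 and 427 in Ezh2cKO, with limma's adjusted p at 0.99998. Acvrl1, a BMP receptor of endothelium, was at 1.10 and 1.66 times WT within numbers 1 and 2. Sele and Selp, the selectins that endothelium shows when activated, were named after their values were seen. Sele had 34.5 and 205 in WT replicates 1 and 2, and 17.6 and 835 in Ezh2cKO replicates 1 and 2. Selp had 63.9 and 609 in WT, and 47.6 and 1010.0 in Ezh2cKO. Both selectins lay under the filter's level of 73.2 on the arrays numbered 1 and passed it only through the arrays numbered 2, so no ratio is given.

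Ligands and co-receptors of the VEGF and angiopoietin systems, many of them made by cells other than endothelium, had Ezh2cKO replicate 1 lowest for 6 of 12 tested. The median log2 difference of the 12 was -0.04 within number 1 and 0.10 within number 2. These signs turned to 0.03 and -0.01 over the same 12 genes with a common median. With that scaling Ezh2cKO replicate 1 was lowest for 2 of 12, and for 7.47% of all genes. Of the 12, 1 was at least 1.5-fold lower within number 1, Nrp1, a VEGF co-receptor of endothelium. It had 2390 and 2331 in WT replicates 1 and 2, and 1118 and 2609.5 in Ezh2cKO replicates 1 and 2. Vegfa, the principal ligand, which keratinocytes make, had 301 and 552 in WT, and 386 and 584 in Ezh2cKO. Angpt1, the Tie2 ligand that mural and mesenchymal cells make, had 99.9 and 231 in WT, and 150.3 and 191 in Ezh2cKO. The ligands thus went both ways within number 1: Vegfa and Angpt1 were at 1.28 and 1.504 times WT, while Angpt2, Vegfc and Apln were at 0.803, 0.834 and 0.698 times with Ezh2cKO replicate 1 lowest, from 1 array each.

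Markers of vessel subtypes and of the cells around vessels were counted in the same way. Of 6 lymphatic genes tested 0 were 1.5-fold lower within number 1 on the log2(signal + 16) scale (median -0.04). Ezh2cKO replicate 1 was the lowest array for 4, or 2 with a common median, where it was for 7.47% of all genes. The lymphatic genes parted in direction: Flt4, the receptor of VEGF-C, and Foxc2, a factor of lymphatic valves, had signals 0.664 and 0.658 times WT within number 1, and Pdpn and Lyve1 at 1.21 and 1.18 times. Of 6 arterial genes, 1 was that much lower, the Notch ligand Dll4, at 99.4 and 30.2 (median of the list -0.15). The 30.2 lay under the filter's level of 73.2, where MAS5 values are noisy. Dll4 had 200 and 237 in WT and Ezh2cKO replicates 2. Of 3 venous genes 1 was that much lower, Aplnr, at 5996 and 3224 (median -0.21). Pericytes and smooth muscle had 0 of 11 genes 1.5-fold lower (median -0.15). With the deposited scaling 10 of the 11 were higher in both arrays numbered 2, where 31.4% of all genes were. These 10 passed limma between the numbers, where 11.6% of all genes were called higher. With a common median 6 of 11 were higher in both, and the share of all genes is not given here. Ezh2cKO replicate 1 was the lowest array for 8 of the 11, where it was for 27.3% of all genes. With a common median it was the lowest for 6, and for 7.47% of all genes. Pdgfrb, the receptor that recruits pericytes, had 1738 and 3378 in WT replicates 1 and 2, and 1218 and 3279 in Ezh2cKO replicates 1 and 2. For Pdgfrb the numbers lay further apart than the genotypes.

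Marker lists of the other cell types a skin sort could hold were likewise counted within number 1. At least 1.5-fold lower in Ezh2cKO were 0 of 11 dermal fibroblast genes (median -0.10), 1 of 11 immune genes (-0.18), 0 of 3 platelet genes (-0.05), 0 of 5 Schwann cell genes (-0.20), 1 of 6 skeletal muscle genes (0.18) and 3 of 5 melanocyte genes (-0.71). Of all genes, 4.20% were that much lower. At least 1.5-fold higher were 2 of the immune genes, 1 of the skeletal muscle genes and 0 in the other lists just named. The share of all genes that much higher is not given here, so the counts of higher genes have no background. The immune gene H2-Ab1 had 342 and 166 in WT, and 797 and 465 in Ezh2cKO. The erythroid list had 1 gene tested, at -0.42. With quantile normalization 2 of 5 melanocyte genes were at least 1.5-fold lower. The 3 counted with the deposited scaling were Dct, Pmel and Kit. Kit, which lies next to Kdr, was at 303 and 169 in WT and Ezh2cKO replicates 1. Dct and Pmel were highest in WT replicate 1, at 307 and 441, against 135 to 182 and 253 to 281 elsewhere. Ezh2cKO replicate 1 was the lowest array for 2 of the 5 melanocyte genes, or 1 with a common median. Pmel was 1 of the 2, with nearly equal Ezh2cKO values of 253.27 and 253.29. The summed signal of the 10 endothelial genes was 10598 and 12204 in WT and 5665 and 13046 in Ezh2cKO, that of 8 melanocyte genes was 2431 and 1714.5 in WT and 1789 and 1717 in Ezh2cKO, and no gene of either list was at 0. What part other cell types or embryo sex had in the endothelial difference was not tested.

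Basal epidermis genes had 1 of 10 that was 1.5-fold lower, with a list median of 0.01. The gene was Itga6, an integrin subunit of basal keratinocytes that endothelial cells carry as well. It had 11908 and 10639 in WT replicates 1 and 2, and 6327 and 9411 in Ezh2cKO replicates 1 and 2. Its lowest array was Ezh2cKO replicate 1, as for the 10 endothelial genes. Both Ezh2cKO values of Itga6 lay under both WT values, which held for 0 of the 10 endothelial genes. Within number 1 the basal genes went both ways, with 5 of 10 below 0. Krt5, Krt15 and Trp63, which mark basal keratinocytes, lay between -0.14 and -0.03. Dst lay at -0.37, Krt14 at 0.05 and Itga3 at 0.47. The summed signal of the 10 basal genes was 98827 and 86381 in WT, and 92774 and 88161 in Ezh2cKO.

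**Figure D4:**
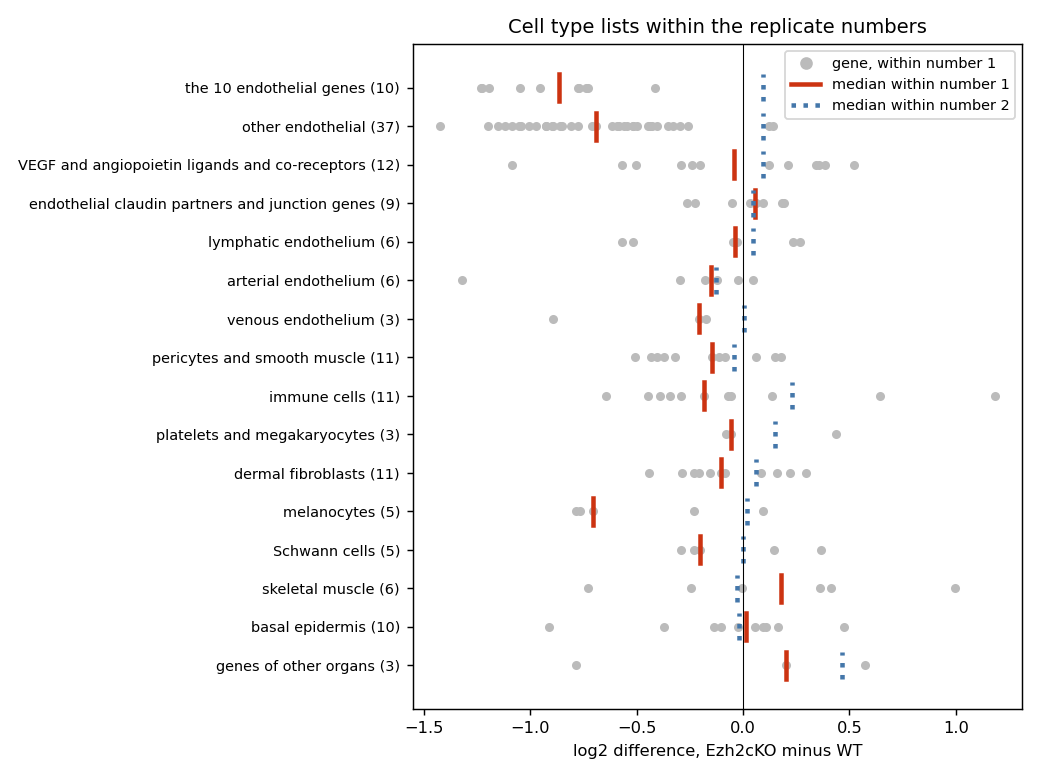
The log2 difference Ezh2cKO minus WT for each tested gene of a list within number 1 (grey points), with the list's median within number 1 (red bar) and within number 2 (dotted blue bar); the count of tested genes is in brackets and lists with fewer than 3 are left out, as is the embryo sex list. The red bars of the 10 endothelial genes, the other endothelial genes and the melanocyte genes lie at -0.87, -0.69 and -0.71, and the dotted bars of these lists at 0.09, 0.09 and 0.02. Ezh2cKO replicate 1 was the lowest array for 10 of 10, 31 of 37 and 2 of 5 genes of these lists, or 9, 24 and 1 with a common median.

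Genes whose 4 values ran closest to the median profile of the 10, as centred log2 values, were Mest, Snhg12, Erg, Robo4, Unc45b, Gabrp, Zbtb20, Col15a1, Dmxl1 and Tmem255a, with root mean square differences of 0.02 to 0.06 over 4 arrays. Erg, an Ets factor, and Robo4, a guidance receptor, are endothelial genes of the longer list. Erg had 266 and 340 in WT, and 132 and 373 in Ezh2cKO. Mest, an imprinted gene, had 8131 and 9683 in WT, and 4147 and 10419 in Ezh2cKO. Of the 37 other endothelial genes, 9 were among the 100 nearest, which is 24.3% of that list and 9% of those 100, where the 100 are 0.788% of the 12693 genes ranked. Each profile rests on 4 arrays.

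Position along the chromosome was looked at as well. The nearest tested protein-coding genes on either side of the 10 genes, 20 in all, had a median log2 difference of -0.07 within number 1, from -0.78 for Kit to 0.30 for Srd5a3. Ezh2cKO replicate 1 was the lowest array for 9 of the 20, where it was for 27.3% of all tested genes and for 10 of the 10 endothelial genes.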

How the data were processed

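Signals were deposited by the authors as MAS5 intensity values on a linear scale, 1 per probe set and array, and MAS5 is named without a version in the submitters' processing notes. With 2% trimmed from either tail every array averaged 500.0, and this scaling was kept. Detection calls were not used here. Of 45101 rows, 64 controls were left out. Genes were named from the platform annotation, with 34945 probe sets holding 1 symbol, 932 several and 9160 none listed, and symbols were updated through the RefSeq table (GRCm38.p6, 34741 matched). Probe sets whose mean lay in the upper 60% were kept (27022). For a gene with several, the brightest kept one stands for it.

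The fits of genotype and of replicate number used limma 3.58.1 (R 4.3.3) on log2(signal + 16), with an intensity trend, no block and Benjamini-Hochberg adjustment over all kept probe sets. Precision is limited by the 4 arrays. The members and the 17 other lists were chosen with earlier results of these data known. Named were the members, up to 12 genes of each of the 2 endothelial and VEGF lists and up to 4 of each other list with the largest moderated t, and the 10 nearest profiles; genes named beyond this, such as Krt5, Krt15, Trp63, Ptprc, Gnat1, Lyve1, Ctnnb1, Srd5a3 and the selectins, were picked as markers or after their values were seen. Values are printed for part of those the rule takes. Alternatives were other pseudocounts, filters, scalings, averaging a gene's probe sets, no trend, a threshold of 0.1, a block and each array left out.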

Additional observations from a re-analysis of the deposited data

Results flagged for a closer look

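Pecam1 showed genotype differences of opposite sign in the 2 replicate numbers, each at least log2 0.3 in size: -0.96 within number 1 and 0.32 within number 2, Ezh2cKO minus WT. Each comes from 1 array per genotype, and the difference between them was not tested. For 8 of the other 9 endothelial genes the signs were also opposite, with a smaller difference within number 2.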

How the results depend on the processing

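The median log2 difference of the 10 genes within number 1 stayed between -0.89 and -0.80 under the other pseudocounts, filters, scalings and with a gene's probe sets averaged. Common median scaling gave -0.017 within number 2, 0.15 between the numbers, 5 genes lower in both Ezh2cKO arrays, 0 higher in both arrays numbered 2 and 16249 probe sets called between the numbers, against 8326 with the deposited scaling, 5437 with quantile normalization and 4755 in the upper 40%. With 1 array left out, the median genotype difference of the 10 genes ran from -1.04 to 0.19, the latter without Ezh2cKO replicate 1. The median number difference ran from 0.31 to 1.28, the genes lower in the Ezh2cKO arrays from 0 to 10, probe sets called between genotypes from 0 to 52 and between numbers from 916 to 10271. In such fits the lone array is assumed to vary like the others. With each array left out in turn, the log2 genotype difference ran from -1.32 to 0.13 for Cdh5, -1.27 to 0.16 for Kdr, -1.10 to 0.46 for Pecam1, -0.72 to 0.066 for Plvap, -0.95 to 0.15 for Esam, -1.43 to 0.36 for Tek, -1.16 to 0.21 for Tie1, -0.98 to 0.28 for Flt1, -0.92 to 0.38 for Emcn and -0.48 to 0.11 for Cldn5, the lowest without Ezh2cKO replicate 2 and the highest without Ezh2cKO replicate 1. With the replicate number as a block, 6 probe sets passed between the genotypes in place of 0, and 0 of the 10 genes (lowest adjusted limma p 0.994). The deviations of the arrays numbered 1 from their genotype means correlated at 0.77 over probe sets, but 2 numbers without a stated link do not pair the samples. The count of genes with Ezh2cKO replicate 1 lowest, an alternative set chosen after seeing the data, was 9 with a common median and 10 under the other settings run. Signals near 73.2 are dim, which bears most on Flt1 and the dimmer Cdh5 probe set.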
